A study of Mus musculus with 34 samples.

Results

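The genes Retnlg, S100a8, S100a9, Csf3r, Ly6g, Ngp, Camp and Lcn2 were followed as markers of neutrophils in visceral white fat, from which the cells other than adipocytes, the stromal vascular fraction (SVF), were taken. They were chosen by name, and all 8 were among the 32098 genes listed in the deposited tables. Male C57BL/6J mice were given a high fat diet (HFD, D12492, with 60% of kcal from fat) or a control diet (CHOW, D12450B or D12450K) from the age of 6 weeks, and tissue was taken after 8, 20 or 34 weeks, at about 14, 26 and 40 weeks of age, following a fast of 6 hours. The groups held 4 CHOW and 6 HFD libraries at 8 weeks, 5 and 6 at 20 weeks, and 7 and 6 at 34 weeks. No gene was deleted or added in any group, and every fraction was treated with a red cell lysis buffer for 3 minutes. The labels number the libraries within a group without tying each one to a single mouse, so p-values measure the spread between these libraries.

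Neutrophils are short-lived granulocytes that are made in the bone marrow under the control of granulocyte colony-stimulating factor, circulate in blood and enter tissue when chemokines call them. Their granule proteins are made in a fixed order during maturation in the marrow, so the RNAs for the earlier granules are largely gone from a mature cell, while RNAs such as S100a8, S100a9 and Csf3r stay. Neutrophils are known to enter visceral fat early during high fat feeding. S100a8 and S100a9 encode the subunits of calprotectin, a calcium-binding and zinc-binding protein that fills the neutrophil cytosol. Csf3r is the receptor for granulocyte colony-stimulating factor, Ly6g is the surface protein that defines mouse neutrophils in cytometry, Ngp and Camp are cathelicidin-family proteins of the secondary granules, Lcn2 binds bacterial siderophores and is also made by macrophages and adipocytes, and Retnlg is a secreted resistin-like protein of myeloid cells.

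The unit throughout is TPM, a relative transcript abundance which is adjusted for transcript length and adds up to 1000000 in each library. TPM keeps no record of the number of reads, so the depth behind each value is unknown. A fold change below is the difference between groups in mean log2(TPM + 1), which understates the change of low genes, and a gene was called where limma's adjusted p over all tested genes was under 0.05. The 8 and 20 week libraries were in 1 table and those of 34 weeks in another, and nothing was tested across them. In bulk RNA, fewer cells of a type and less RNA per cell cannot be told apart.

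The most specific marker was close to absent. Ly6g was listed at 0 in 20 of the 34 libraries, reached 1 TPM in 4 of them and peaked at 2.96 TPM. Camp was also at 0 in 20 libraries, with a peak of 15.5 TPM, and Ngp was at 0 in 16, with a peak of 26.3 TPM. Both peaks came from the same library, CHOW 20 week replicate 3. The other 5 genes were above 0 in every library. Over the 34 libraries, S100a9 ranged from 8.56 to 1205 TPM with a median of 29.6 TPM, and S100a8 from 5.98 to 484 TPM with a median of 15.4 TPM. Retnlg ranged from 0.898 to 303 TPM, with a median of 43.7 TPM. The range was 8.12 to 354 TPM for Lcn2 and 5.83 to 102 TPM for Csf3r. Since the surface gene that defines neutrophils was at or near 0 in most libraries, the genes are called by name below.

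Other tissue was present in the fractions. Summed TPM of 6 macrophage genes ran from 1991 to 8070 over the groups, and that of 5 hemoglobin and heme synthesis genes reached 267887 in an HFD 8 week library. Libraries that stood apart were HFD 8 week replicate 3, where 6 seminal vesicle genes summed to 117744 TPM, HFD 20 week replicate 5, where 4 germ cell genes summed to 10830 TPM, and CHOW 34 week replicates 5 to 7, in which adipocyte RNA was high (up to 12618 TPM for 4 genes). Leaving these libraries out together changed the number of genes called among the 8 in a single comparison, given below.

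All 8 are protein-coding genes of the mouse genome (GRCm38), and no other annotated gene overlapped any of them. S100a8 (chr3:90668978-90670035, plus strand) and S100a9 (chr3:90692632-90695721, minus strand) are neighbours with 22596 bases between them. Ngp (chr9:110419747-110423012, plus strand) and Camp (chr9:109847379-109849617, minus strand) are 570129 bases apart. Retnlg lies at chr16:48872621-48874496, Csf3r at chr4:126024550-126044440, Ly6g at chr15:75155240-75159126, all on the plus strand, and Lcn2 at chr2:32384633-32388252 on the minus strand. S100a8, S100a9, Ngp, Camp and Lcn2 shared no stretch of 31 bases with a transcript of another gene. Retnlg shared 5.51% of its stretches of 31 bases with its paralog Retnla, and Ly6g shared 9.55% with 11 other genes. Csf3r shared 23.1% with 879 other genes, most of it (19.9%) with AC105061.2. Reads from these shared stretches could have been divided between the genes, which was not tested.

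The promoters of Retnlg, S100a9 and S100a8 are printed for a reason described below. S100a8 and S100a9 moved together between libraries, while Retnlg followed them less closely. The sequences were taken from RefSeq (GRCm38.p6), 5′ to 3′ on the strand of the gene, and cover chr16:48872358-48872607 on the plus strand for Retnlg, chr3:90695722-90695971 on the minus strand for S100a9 and chr3:90668821-90668977 on the plus strand for S100a8, which was shortened to 157 bases so that it ends before the annotated transcripts. Capitals mark matches to 2 motifs of factors that direct granulocyte genes, C/EBP (TTGCNNAA or TTNNGCAA) and PU.1 (GAGGAA or TTCCTC), searched on both strands in the 250 bases before each RefSeq start.
Retnlg: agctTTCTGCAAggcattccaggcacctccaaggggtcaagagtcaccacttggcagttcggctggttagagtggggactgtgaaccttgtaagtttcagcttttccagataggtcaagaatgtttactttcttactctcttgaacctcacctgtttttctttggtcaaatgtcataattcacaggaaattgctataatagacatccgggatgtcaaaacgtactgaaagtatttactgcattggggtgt
S100a9: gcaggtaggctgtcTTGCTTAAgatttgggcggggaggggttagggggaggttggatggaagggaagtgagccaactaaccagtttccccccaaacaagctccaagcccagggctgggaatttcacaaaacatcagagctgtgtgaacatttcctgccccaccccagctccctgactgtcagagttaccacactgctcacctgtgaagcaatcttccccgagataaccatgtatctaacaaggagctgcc
S100a8: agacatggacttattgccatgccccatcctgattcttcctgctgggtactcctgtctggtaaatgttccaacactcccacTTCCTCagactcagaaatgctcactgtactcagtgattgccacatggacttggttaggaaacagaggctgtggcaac
Matches to the C/EBP letters lay in the 250 bases before at least 1 start of 5 of the 8 genes (Retnlg, S100a9, Ly6g, Ngp and Lcn2), against 9.56% of 32851 RefSeq promoters. The PU.1 letters were found for 4 of the 8 (S100a8, Csf3r, Ly6g and Lcn2), against 23.3% of promoters. No match to either was found for Camp. These counts used the full 250 bases, which for most of the 8 genes reach past the annotated edge of the gene. The windows of S100a8, Csf3r, Ly6g, Ngp and Camp end inside the annotated gene. That of Lcn2 (chr2:32387740-32387989) lies wholly inside it, as do its matches. A match describes these letters in this window and is not evidence of binding.

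**Figure D1:**
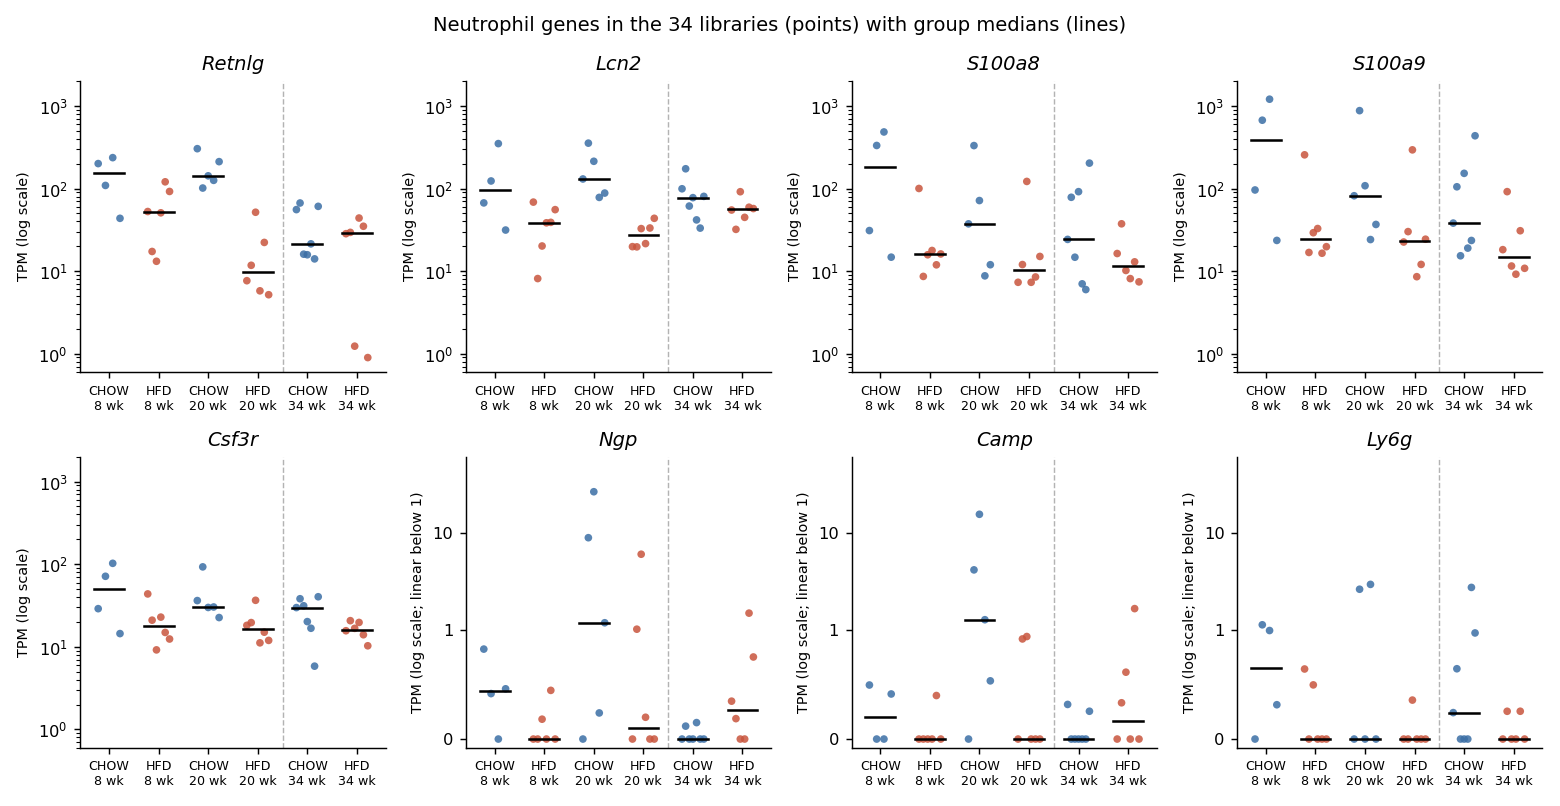
TPM of the 8 neutrophil genes (log axes, linear below 1 TPM for Ngp, Camp and Ly6g) in each library by diet and weeks on diet, with blue points for CHOW, red points for HFD and black lines for group medians. The dashed line separates the tables, which were made separately. Retnlg and Lcn2 of the HFD 20 week group lie below every CHOW 20 week library, while S100a8, S100a9 and Csf3r overlap between diets at every time and have a few high libraries in both diets.

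The comparison of diets after 20 weeks asks which of these genes differed in established obesity. Retnlg and Lcn2 were lower in HFD than in CHOW, and S100a8, S100a9, Csf3r and Ngp did not pass the test. Retnlg was at 303, 101, 142, 126 and 211 TPM in the 5 CHOW libraries, and in the 6 HFD libraries its lowest value was 5.18, its median 9.71 and its highest 51.6 TPM. Every HFD library was below every CHOW library. The log2 fold change was -3.62 (95% interval -4.87 to -2.38, limma adjusted p = 0.00055). Lcn2 was at 130, 354, 214, 78.0 and 88.0 TPM in CHOW and had a lowest value of 19.7, a median of 27.1 and a highest of 43.6 TPM in HFD, again without overlap. Its log2 fold change was -2.39 (95% interval -3.52 to -1.26, limma adjusted p = 0.00651). Among all 16808 genes tested, 14.3% were called at 20 weeks, 4.99% were called lower in HFD (839 of 2405 called genes), and 3.69% were lower without any overlap of libraries. Under quantile normalization 1854 of 3502 called genes were lower. Against this, 2 of the 8 genes, of which 6 had enough signal to be tested, were called lower and none higher.

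The calprotectin genes spread widely within both diets at 20 weeks. S100a8 was at 37.3, 331, 71.5, 8.76 and 11.9 TPM in CHOW, and its lowest, median and highest values in HFD were 7.32, 10.2 and 122 TPM. S100a9 was at 81.7, 876, 108, 24.1 and 36.7 TPM in CHOW against 8.56, 23.4 and 294 TPM for the lowest, median and highest HFD library. A single CHOW library, replicate 2, and a single HFD library, replicate 3, held the high values, and the diets overlapped. The log2 fold changes were -1.36 for S100a8 (95% interval -3.37 to 0.66, limma adjusted p = 0.365) and -1.67 for S100a9 (95% interval -3.85 to 0.51, limma adjusted p = 0.296), intervals that hold both no difference and a difference as large as that of Lcn2. Without CHOW replicate 2 they were -0.60 and -0.87, the smallest differences of the runs that left out 1 library. The largest differences of these runs were -1.95 for S100a8 and -2.33 for S100a9. Csf3r was at 36.3, 92.8, 29.9, 30.3 and 22.6 TPM in CHOW and had a lowest value of 11.2, a median of 16.6 and a highest of 36.6 TPM in HFD. The difference of -1.06 on the log2 scale did not pass the test (95% interval -2.01 to -0.11, limma adjusted p = 0.12).

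The secondary granule genes were low at 20 weeks in most libraries. Ngp was listed at 0, 8.90, 26.3, 0.240 and 1.2 TPM in CHOW and had a lowest value of 0, a median of 0.1 and a highest of 6.03 TPM in HFD. Its log2 fold change of -1.22 did not pass the test (limma adjusted p = 0.22) and was -0.51 without CHOW replicate 3. Runs that left out 1 library gave -1.70 to -0.51. Camp was listed at 0, 4.17, 15.5, 1.29 and 0.536 TPM in CHOW, and in HFD it was at 0 in 4 of 6 libraries with a highest value of 0.944 TPM. Ly6g was listed at 0 in CHOW replicates 1, 3 and 5, at 2.64 TPM in replicate 2 and at 2.96 TPM in replicate 4, and in HFD it was at 0 in 5 of 6 libraries with a highest value of 0.359 TPM. Camp and Ly6g were not tested, since they reached 1 TPM in too few libraries.

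Genes listed for other cell types also differed between diets in the same 20 week libraries. All 5 erythroid genes were lower in HFD, with a summed level of 27334 to 130027 TPM in CHOW and 12622 to 30448 TPM in HFD, and all 5 mesothelial genes were lower (174 to 582 against 56.6 to 178 TPM). Of 5 monocyte genes, 3 were lower (357 to 859 against 175 to 305 TPM). Among the 5 eosinophil genes, 3 were lower (21.1 to 68.4 against 8.61 to 17.5 TPM), while Epx, the peroxidase that defines these cells, was listed at 0 in 4 of 5 CHOW and all 6 HFD libraries. Of 6 macrophage genes, 3 were higher and none was called lower (2389 to 5176 against 4185 to 6815 TPM). The mean of Mrc1, from the same list, was lower in HFD without a call. It was at 263 ± 92.7 TPM (SD, n = 5) in CHOW and 184 ± 60.6 TPM (SD, n = 6) in HFD. With the erythroid level as a covariate, Retnlg remained lower (-3.12 on the log2 scale, limma adjusted p = 0.0461) and so did Lcn2 (-2.82, limma adjusted p = 0.048). The same covariate moved S100a8 to -2.34, S100a9 to -2.83 and Csf3r to -1.91 without a call (limma adjusted p = 0.337, 0.285 and 0.0725). The part of the other cell types in these results was not tested.

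**Figure D2:**
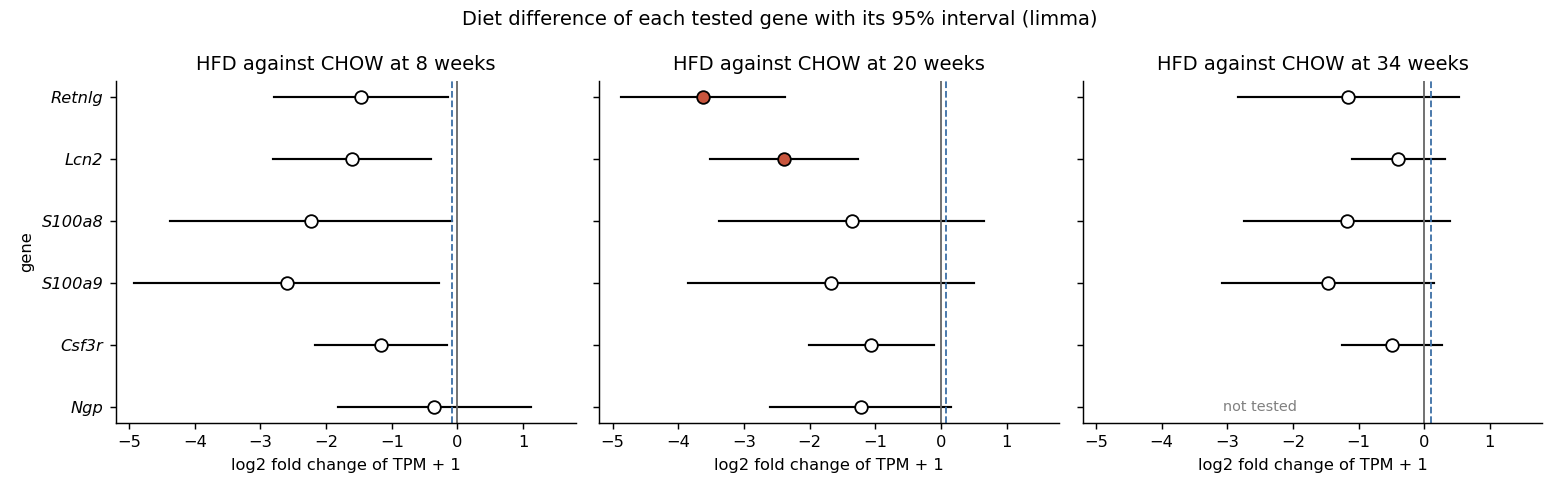
Log2 fold change of TPM + 1, HFD against CHOW, for each tested neutrophil gene at 8, 20 and 34 weeks, with its 95% interval (black bars) from limma. Filled points passed an adjusted p of 0.05, and the blue dashed line is the median of all tested genes. Only Retnlg and Lcn2 at 20 weeks are filled, and Ngp was not tested at 34 weeks.

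After 8 weeks no neutrophil gene was called in limma, and the fold changes of all 6 tested genes were below 0. Retnlg was at 200.2, 109, 236 and 43.6 TPM in the 4 CHOW libraries and had a lowest value of 13.1, a median of 51.7 and a highest of 120.5 TPM in the 6 HFD libraries. S100a9 was at 96.0, 671, 1205 and 23.5 TPM in CHOW, and its lowest, median and highest values in HFD were 16.5, 24.5 and 256 TPM. The diets overlapped for both genes. The log2 fold change was -1.46 for Retnlg (95% interval -2.79 to -0.14, limma adjusted p = 0.464) and -2.60 for S100a9 (95% interval -4.92 to -0.28, limma adjusted p = 0.458).

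The diets overlapped for the remaining genes at 8 weeks as well. S100a8 was at 31, 332, 484 and 14.7 TPM in CHOW and at 8.62 to 100.1 TPM in HFD, with a median of 16 TPM. Lcn2 was at 66.9, 123, 349.6 and 31.4 TPM in CHOW and at 8.12 to 68.4 TPM in HFD, with a median of 38.7 TPM. Csf3r was at 29.0, 71.4, 102 and 14.5 TPM in CHOW and at 9.18 to 43.7 TPM in HFD, with a median of 18 TPM. In all 3 genes CHOW replicates 1 and 4 lay within the range of the HFD libraries. The log2 fold changes were -2.23, -1.60 and -1.16 (limma adjusted p = 0.5, 0.352 and 0.439), and without CHOW replicate 3 they were -1.45, -0.996 and -0.74. These were the smallest differences of the runs that left out 1 library, and the largest were -3.10, -2.14 and -1.66. Ngp did not exceed 0.829 TPM in CHOW or 0.448 TPM in HFD, Camp 0.498 and 0.401 TPM, and Ly6g 1.14 and 0.645 TPM. Over all genes, 0.0238% were called at 8 weeks (4 of 16808). The unadjusted limma p was under 0.05 for 5 of the 6 tested neutrophil genes and for 1630 of all genes. The median log2 fold change of the 6 was -1.53, against -0.08 for all genes.

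After 34 weeks the diets overlapped for every one of the 8 genes and none was called. Retnlg had a lowest value of 14.1, a median of 21.4 and a highest of 66.8 TPM in the 7 CHOW libraries and of 0.898, 28.9 and 43.9 TPM in the 6 HFD libraries. HFD replicates 3 and 6 were at 1.23 and 0.898 TPM, and the other 4 HFD libraries were between 28.4 and 43.9 TPM. S100a9 was at 15.3 to 435 TPM with a median of 38.1 TPM in CHOW and at 9.17 to 91.6 TPM with a median of 14.9 TPM in HFD. S100a8 was at 5.98 to 203 TPM with a median of 24.2 TPM in CHOW and at 7.41 to 37.4 TPM with a median of 11.6 TPM in HFD. For both calprotectin genes the highest library was a CHOW library, replicate 7. Csf3r was at 5.83 to 40.4 TPM in CHOW and 10.3 to 20.7 TPM in HFD, and Lcn2 at 33.2 to 173 TPM in CHOW and 32.0 to 91.4 TPM in HFD.

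The log2 fold changes at 34 weeks were -1.16 for Retnlg, -1.17 for S100a8, -1.47 for S100a9, -0.49 for Csf3r and -0.39 for Lcn2 (limma adjusted p between 0.411 and 0.61). Retnlg was at -0.64 without HFD replicate 3 and at -0.59 without HFD replicate 6, S100a8 at -0.73 without CHOW replicate 7, Csf3r at -0.79 without CHOW replicate 6, and Lcn2 at -0.18 without CHOW replicate 2 and -0.25 without HFD replicate 2. Runs that left out 1 library gave -1.50 to -0.59 for Retnlg, -1.54 to -0.73 for S100a8 and -1.90 to -0.98 for S100a9. They gave -0.79 to -0.36 for Csf3r and -0.57 to -0.18 for Lcn2. The 95% interval of Retnlg ran from -2.84 to 0.53 and that of Lcn2 from -1.11 to 0.32, so the upper bound of neither was below 0. No unadjusted p was under 0.05 among the 5 genes tested, and 0.243% of the 13982 genes tested at this time were called. Ngp, Camp and Ly6g were not tested. They peaked in HFD at 1.5, 1.67 and 0.256 TPM and in CHOW at 0.152, 0.319 and 2.76 TPM.

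The comparison of times within a diet, and of the diet effect between times, was possible for 8 and 20 weeks. On CHOW no neutrophil gene was called between 8 and 20 weeks, where 0.613% of all genes were called, and no unadjusted p was under 0.05. Retnlg had a median of 155 TPM at 8 weeks and 142 TPM at 20 weeks on CHOW (log2 fold change 0.41, 95% interval -0.97 to 1.79). On HFD its median was 51.7 TPM at 8 weeks and 9.71 TPM at 20 weeks, and the ranges of 13.1 to 120.5 and 5.18 to 51.6 TPM overlapped. The log2 fold change of -1.75 (95% interval -2.93 to -0.56) fell short of the threshold (limma adjusted p = 0.0585), in a comparison in which 8.78% of all genes were called, and it passed without HFD 8 week replicate 2 (adjusted p = 0.0343), without HFD 8 week replicate 3 (0.0272), without HFD 20 week replicate 3 (0.0198) or without the libraries that stood apart (0.0265). With the erythroid level as a covariate it was -1.10 (limma adjusted p = 0.512). Lcn2 changed by -0.21 (95% interval -1.29 to 0.87), S100a8 by -0.33, S100a9 by -0.22 and Csf3r by -0.07 on the log2 scale, none of which passed.

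No difference of the diet effect between 8 and 20 weeks was called for the 6 genes in a limma test of the interaction, where 0.297% of all genes were called. For Retnlg the effect at 20 weeks was lower than that at 8 weeks by -2.16 on the log2 scale (95% interval -3.98 to -0.34, limma adjusted p = 0.321). It was the only gene of the 6 with an unadjusted p under 0.05. For Lcn2 the difference of effects was -0.79 (95% interval -2.44 to 0.86), and for S100a9 it was 0.93 (95% interval -2.25 to 4.11). So a diet effect called at 20 weeks and not at 8 weeks was not shown to differ between the times.

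By group medians, CHOW 8 weeks was the highest group for Retnlg, S100a8, S100a9 and Csf3r, and CHOW 20 weeks for Lcn2, Ngp and Camp. For S100a8, S100a9, Csf3r and Lcn2, the 3 CHOW groups came before the 3 HFD groups. The order of Retnlg was CHOW 8 weeks (155 TPM), CHOW 20 weeks (142), HFD 8 weeks (51.7), HFD 34 weeks (28.9), CHOW 34 weeks (21.4) and HFD 20 weeks (9.71). In all 8 genes each group overlapped with the next in this order. The 34 week groups came from a separate table, so their place in the order is a description.

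The genes did not move as a single block between libraries. In every one of the 6 groups, the library with the most S100a9 also had the most S100a8 and the most Csf3r, but it had the most Lcn2 in only 3 groups and the most Retnlg in only 2. In CHOW at 20 weeks, replicate 2 had the highest S100a9 of its group (876 TPM) and the lowest Retnlg (101 TPM). The ratio of S100a9 to S100a8 stayed between 1.04 and 3.93 over the 34 libraries, whereas the ratio of Retnlg to S100a9 ran from 0.0830 to 7.32. Camp and Ngp peaked in the same library in 5 of the 6 groups.

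Correlations of log2(TPM + 1) after subtraction of the group mean put numbers on this, with 10 pairs of genes per table and libraries permuted within groups. Over the 21 libraries of 8 and 20 weeks, S100a8 and S100a9 had a Pearson r of 0.976 (permutation p = 1e-05, the smallest that 100000 draws can give, adjusted p = 0.0001) and a Spearman rho of 0.934 (permutation p = 1e-05, adjusted p = 0.0001). Over the 13 libraries of 34 weeks the values were 0.932 (permutation p = 0.00014, adjusted p = 0.0014) and 0.962 (permutation p = 8e-05, adjusted p = 0.0008). Without the 2 libraries farthest from the median of S100a8, r was 0.961 and 0.875. S100a9 and Csf3r had an r of 0.902 at 8 and 20 weeks (permutation p = 5e-05, adjusted p = 0.00025; rho 0.764, permutation p = 0.00059, adjusted p = 0.00197; r = 0.87 without the farthest 2). At 34 weeks their r of 0.447 did not pass (permutation p = 0.204, adjusted p = 0.255; rho 0.401, permutation p = 0.231, adjusted p = 0.257).

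Lcn2 correlated with the calprotectin genes at 8 and 20 weeks but not past the threshold at 34 weeks, and Retnlg did not pass with any of the other 4. Lcn2 had an r of 0.777 with S100a8 (permutation p = 0.00019, adjusted p = 0.000525; rho 0.821, permutation p = 0.00016, adjusted p = 0.0008; r = 0.809 without the farthest 2) and of 0.716 with S100a9 (permutation p = 0.00123, adjusted p = 0.00246; rho 0.636, permutation p = 0.00708, adjusted p = 0.0142; r = 0.734 without the farthest 2). At 34 weeks neither pair passed (r = 0.463, permutation p = 0.192, adjusted p = 0.255 with S100a8, and r = 0.227, permutation p = 0.518, adjusted p = 0.575 with S100a9). The r of Lcn2 with Csf3r at 8 and 20 weeks, 0.624 (permutation p = 0.0169, adjusted p = 0.0281), rested on the farthest 2 libraries, without which it was 0.452 (adjusted p = 0.15), and its rho was 0.516 (permutation p = 0.0499, adjusted p = 0.0831). S100a8 and Csf3r had an r of 0.857 at 8 and 20 weeks (permutation p = 0.00021, adjusted p = 0.000525; rho 0.688, permutation p = 0.00537, adjusted p = 0.0134; r = 0.801 without the farthest 2). For Retnlg, r lay between 0.321 and 0.454 at 8 and 20 weeks (adjusted permutation p between 0.0837 and 0.174) and between 0.0248 and 0.472 at 34 weeks (adjusted permutation p between 0.0851 and 0.927). In all, 6 of 10 pairs passed at 8 and 20 weeks and 1 of 10 at 34 weeks.

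**Figure D3:**
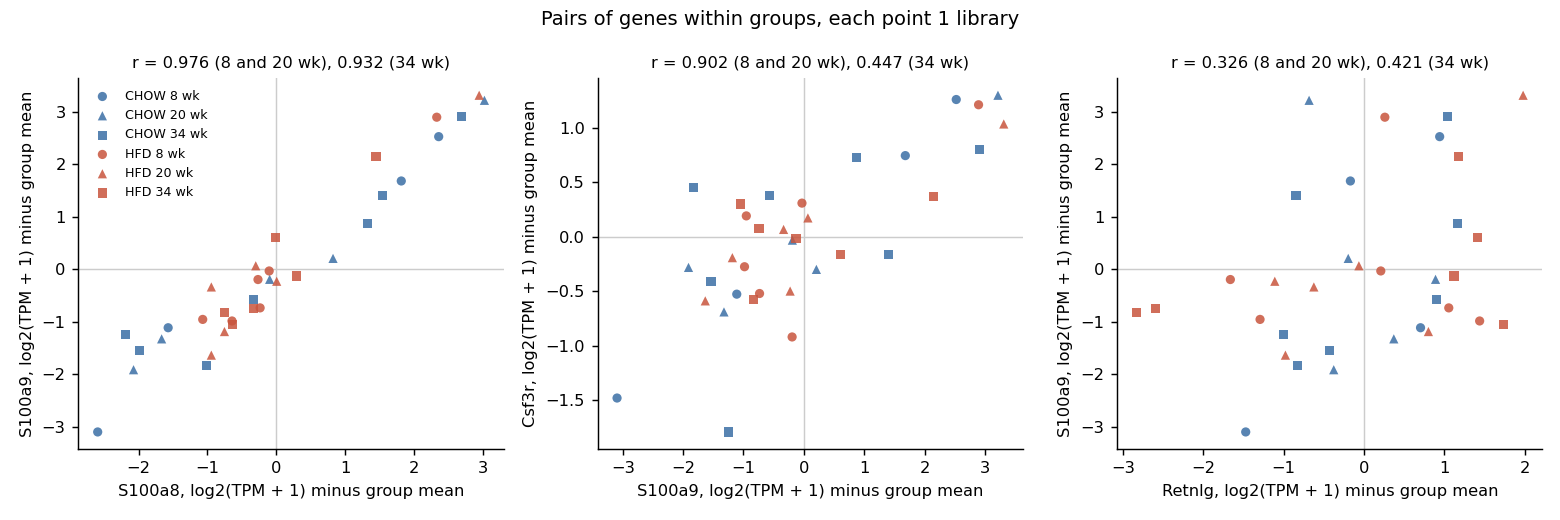
Deviation of each library from the mean of its group in log2(TPM + 1) for 3 pairs of genes, with blue for CHOW, red for HFD, and circles, triangles and squares for 8, 20 and 34 weeks. S100a8 and S100a9 fall along 1 line (r = 0.976 at 8 and 20 weeks, 0.932 at 34 weeks), S100a9 and Csf3r less tightly (0.902 and 0.447), and Retnlg and S100a9 scatter (0.326 and 0.421).

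Likeness to tested genes outside the 8 was taken as the Pearson r of the same group-centred values over the 21 libraries of 8 and 20 weeks. The genes outside the 8 that were most like each one also differed. For S100a8 they were Mmp8, the neutrophil collagenase (0.894), Cxcr2, the receptor for neutrophil-attracting chemokines (0.872), and Slfn4 (0.869, and 0.807 over the 13 libraries of 34 weeks). S100a9 shared Slfn4 (0.876) and Mmp8 (0.874) with it and added Asprv1 (0.872). Csf3r was most like Spcs2, a subunit of the signal peptidase (0.938, and 0.943 at 34 weeks, a likeness whose dependence on how reads were assigned was not tested), Fpr1, a receptor for formylated bacterial peptides (0.916), and Sirpb1b (0.907). The list of Lcn2 was Il1f9 (0.865), Chil1 (0.859) and Il1r2, the decoy receptor for interleukin 1 (0.856). Retnlg was most like Adgre4 (0.822, but 0.347 at 34 weeks), F5, which encodes coagulation factor V (0.79, and 0.666 at 34 weeks), and Ccr3, the eotaxin receptor of eosinophils (0.774, and 0.671 at 34 weeks). None of the 3 was among the genes nearest to S100a8, S100a9, Csf3r or Lcn2. For Ngp, at or near 0 in most libraries, the highest r was 0.716. These likenesses describe values that share a library and carry no test.

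Retnlg has paralogs that are far more abundant or made elsewhere, and these did not always move with it. Retnla, a resistin-like gene of alternatively activated macrophages, averaged 4393 ± 1999 TPM (SD, n = 4) in CHOW and 5392 ± 1389 TPM (SD, n = 6) in HFD at 8 weeks, while the median of Retnlg was 155 and 51.7 TPM. At 20 weeks Retnla was at 3246 ± 1846 TPM (SD, n = 5) in CHOW and 503 ± 219 TPM (SD, n = 6) in HFD (log2 fold change -2.62, limma adjusted p = 0.000169). Retn, the resistin gene of mouse adipocytes, was lower at 20 weeks too (-2.12, limma adjusted p = 0.000334), when 3 of 4 adipocyte genes were also lower (187 to 348 TPM summed in CHOW and 99.7 to 192 TPM in HFD). Of the 6 paralogs of the neutrophil genes, 5 were tested and these 2 were the ones called at 20 weeks. Shared reads between Retnla and Retnlg were not tested.

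Other genes of neutrophils were counted in 4 lists of 28 genes, of which 23 were tested at 8 and 20 weeks and 15 at 34 weeks. At 20 weeks, 4 of the 23 were lower in HFD and 1 was higher, beside 4.99% of all genes called lower and 9.32% called higher. All 3 called genes of the secondary and tertiary granule list were lower, with Mmp9 (gelatinase B) at -3.14 (limma adjusted p = 2.02e-05) and Hp (haptoglobin) at -1.82 (limma adjusted p = 0.000713) changing most. Mmp9 was at 40.7 ± 14.9 TPM (SD, n = 5) in CHOW and 3.91 ± 2.65 TPM (SD, n = 6) in HFD. Macrophages also make Mmp9, and adipocytes also make Hp. Padi4, the enzyme that citrullinates histones in neutrophil extracellular traps, fell by 1.75 (limma adjusted p = 0.00723).

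Several receptors and a collagenase of neutrophils were not called at 20 weeks. The log2 fold change was -0.43 for Cxcr2 (limma adjusted p = 0.667), -0.63 for Mmp8 (0.408), -1.18 for Fpr1 (0.259) and -0.87 for Trem1 (0.461). Ctsg, a serine protease of primary granules that mast cells make as well, was higher in HFD at 20 weeks (2.36 ± 1.91 TPM, SD, n = 5, in CHOW and 6.19 ± 2.52 TPM, SD, n = 6, in HFD, log2 fold change 1.19, limma adjusted p = 0.0241) and at 34 weeks (1.85, limma adjusted p = 0.046). At 34 weeks no gene was called with a pseudocount of 0.1 TPM, with the replicate block, or without the libraries that stood apart. The same held when CHOW replicate 7 or 1 of HFD replicates 2 and 4 was left out, so the call of Ctsg was lost in all of these. Whether Ctsg kept its call in the other alternatives was not examined. They called from 1 gene (without HFD replicate 3) to 294 genes (sample quality weights), against 34. The other primary granule genes did not pass, with Mpo (myeloperoxidase) at 0.55 (limma adjusted p = 0.342) and Prtn3 at -0.44 (0.379), and Elane not tested. At 8 weeks none of the 23 was called, and 12 had an unadjusted limma p under 0.05, as did 1630 of all 16808 genes tested. The fold changes of 20 were below 0, and the share of all genes below 0 was not counted. The median of the 23 was -1.28, against -0.08 for all genes. At 20 weeks the median of the 23 was -0.89, against 0.08 for all genes, and at 34 weeks that of 15 was -0.72, against 0.10.

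**Figure D4:**
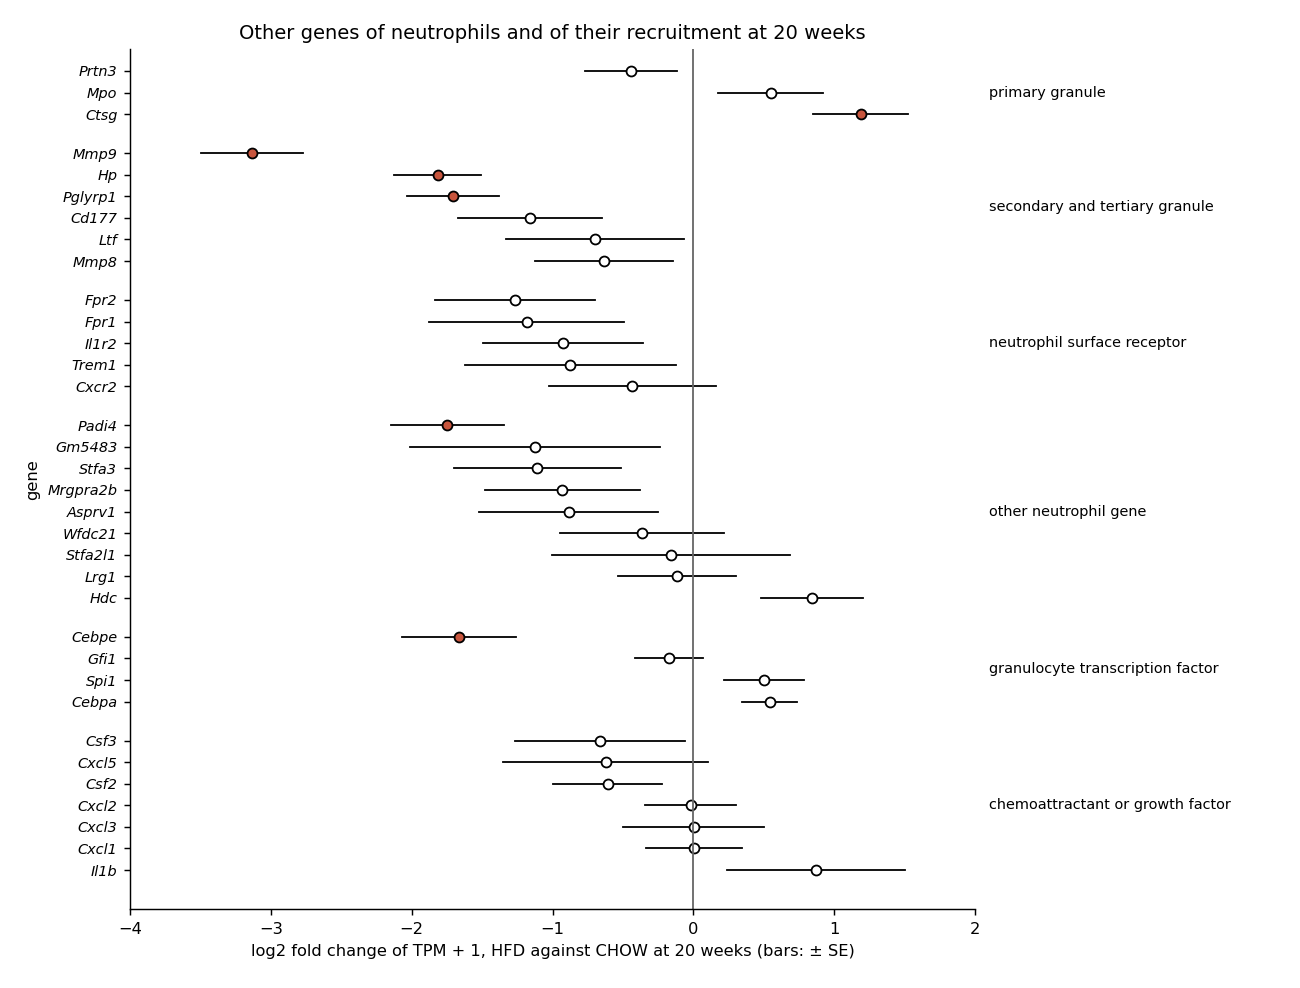
Log2 fold change of TPM + 1, HFD against CHOW at 20 weeks, of the tested genes of 6 lists (granules, receptors, other neutrophil genes, transcription factors, and chemoattractants or growth factors), with bars for ± SE and filled points for an adjusted limma p under 0.05. Mmp9 (-3.14) lies farthest to the left, Ctsg (1.19) is the filled point to the right, and Cxcl1, Cxcl2 and Cxcl3 lie near 0.

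Transcription factors of granulocytes and the signals that attract neutrophils were counted as well. Of the 4 granulocyte transcription factors, Cebpe, which drives secondary granule genes, was lower in HFD at 20 weeks (5.44 ± 3.71 TPM, SD, n = 5, in CHOW and 0.913 ± 0.642 TPM, SD, n = 6, in HFD, log2 fold change -1.66, limma adjusted p = 0.0103), and Cebpa, Gfi1 and Spi1 were not called. None of the 7 tested chemoattractant or growth factor genes was called between diets at 8, 20 or 34 weeks in limma, and the number with an unadjusted p under 0.05 was 0, 0 and 1. Cxcl1, a ligand of Cxcr2, was at 5432 ± 1401 TPM (SD, n = 5) in CHOW and 5646 ± 2243 TPM (SD, n = 6) in HFD at 20 weeks. Between 8 and 20 weeks it rose on CHOW (log2 fold change 2.44, limma adjusted p = 0.00346), as the single called gene of the 7. On HFD 5 of the 7 rose, among them Cxcl5 (2.64, limma adjusted p = 0.022) and Csf3, the ligand of Csf3r (1.86, limma adjusted p = 0.0467). Of the 8 genes followed here, 6 were tested in the same comparison and none was called, with Retnlg at a limma adjusted p of 0.0585. Over all genes, 8.78% were called between these times on HFD and 0.613% on CHOW.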

How the data were processed

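Bulk RNA of the SVF was sequenced on a NextSeq 500 from TruSeq stranded mRNA libraries. The deposited values are TPM that the authors made with Trimmomatic and Salmon from gencode M10 transcripts, summed to genes (versions not given in the sources used here). Depth is unknown from TPM. Symbols and positions came from gencode M21, which matched 31791 of 32098 gene identifiers.

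Groups came from the labels. Values were taken as log2(TPM + 1) and fitted with limma 3.58.1 (R 4.3.3, trend) over genes that reached 1 TPM in no fewer than 4 libraries (8 and 20 weeks) or 6 (34 weeks), with Benjamini-Hochberg adjustment over all tested genes. Pairs of genes were compared by permutation within groups (numpy 2.4.6). The limma and permutation steps were tested on simulated data. The alternatives were another pseudocount, 2 other filters, 3 other scalings, fewer groups in the fit, library weights, a replicate block, an erythroid covariate and left-out libraries.

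The 8 genes and all lists were chosen with earlier results of these data known. All 8 genes are given, with up to 2 called genes per list and direction, and the 3 nearest genes outside the 8 by r. Genes named as not called, and the lists' levels shown beside them, were chosen after their values were seen. Of the genes first listed, 1 receptor gene was taken out of all counts and is not reported here.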

Additional observations from a re-analysis of the deposited data

Results flagged for a closer look

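Each tested gene was examined in each group, which gave 34 sets of 4 to 7 libraries. Ly6g, Camp and, at 34 weeks, Ngp were not tested and so not examined. In 5 of the 34 sets a single library lay far from the others. This was judged on the scale of log2(TPM + 1) by the share of the set's range that the library's gap to the next one took up. The shares below are on that scale and would differ on TPM itself. Chance gives about 1 such set in 20 for independent sets, but the sets below repeat the same libraries and are not independent. In HFD at 8 weeks, replicate 1 had 100.1 TPM of S100a8 (gap 0.716 of the range) and 256 TPM of S100a9 (0.755). In HFD at 20 weeks, replicate 3 had 122 TPM of S100a8 (0.756), 294 TPM of S100a9 (0.656) and 6.03 TPM of Ngp (0.637). The same HFD 20 week library also had the highest summed erythroid level of its group (30448 TPM), and the part of that in these values was not tested.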

How the results depend on the processing

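Of 812 alternative values of the genes' fold changes, 778 kept their direction and their side of the threshold, 9 passed it newly (all Retnlg between 8 and 20 weeks on HFD) and 25 changed sign. The 2 calls at 20 weeks held in every alternative run, with limma adjusted p of 0.000204 to 0.00255 for Retnlg and 0.00644 to 0.0224 for Lcn2 when single libraries were left out. The number of the 8 genes called between 8 and 20 weeks on HFD went from 0 to 1 with median-ratio scaling, quantile normalization, rescaling without erythroid, germ cell and seminal vesicle genes, sample quality weights, the replicate block, or without the libraries that stood apart, and ranged from 0 to 1 when single libraries were left out. Libraries with the same replicate number in different groups correlated at -0.105 to 0.404, over 0.1 in 16 of 34 same-number pairs. Libraries of unlike number were not compared, so whether replicate numbers pair the samples was not settled. Values without single libraries ran from -0.080 to 0.72 for Retnlg and -0.67 to 0.24 for Csf3r on CHOW over time. On HFD they ran from -0.92 to 0.13 for S100a8, -0.88 to 0.36 for S100a9, -0.28 to 0.17 for Csf3r and -0.58 to 0.0086 for Lcn2. In the interaction, the erythroid covariate gave -0.17 for S100a8, -0.31 for S100a9 and -0.80 for Csf3r. Csf3r was also at -0.054 with median-ratio scaling, -0.091 with quantile normalization, -0.025 with rescaling, -0.22 with weights, -0.0065 with the replicate block, -0.039 without the libraries that stood apart, and -0.31 to 0.60 without single libraries. Median-ratio scaling moved the median of all genes there from 0.18 to 0.03, and quantile normalization to -0.02. The causes were not tested. Counts over all genes varied more, from 304 (erythroid covariate) to 5092 (weights) at 20 weeks against 2405, from 0 to 294 at 34 weeks against 34, from 0 to 209 at 8 weeks against 4, from 24 to 1659 on CHOW over time against 103, from 273 to 2755 on HFD over time against 1475 (446 lower, and 1630 lower with quantile normalization), and from 2 to 400 in the interaction against 50. The lowest counts without a single library were 1253 at 20 weeks (CHOW 20 week replicate 4), 932 on HFD over time (HFD 8 week replicate 6), 0 at 34 weeks (CHOW 34 week replicate 7, HFD 34 week replicate 2 or replicate 4), and 0 at 8 weeks, 24 on CHOW over time and 13 in the interaction (CHOW 8 week replicate 4). Values of 1 TPM or less, most of those of Ly6g, Ngp and Camp, have an unknown precision.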

Other observations

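Genes of the neutrophil lists were also called over time on HFD, where 6 of the 8 genes were tested and none was called. Hdc, histidine decarboxylase, rose between 8 and 20 weeks on HFD (log2 fold change 2.04, limma adjusted p = 0.000778), whereas Mmp9 fell by 1.2 (limma adjusted p = 0.0345), and these were among the 3 genes called of the 23 tested in the neutrophil lists (Ctsg was the other, at 2.18). Over all genes, 8.78% were called in this comparison (1475 of 16808). In the comparison of diets at 20 weeks, Siglecf, a surface marker of eosinophils, was lower in HFD (-2.23, limma adjusted p = 0.000433), as was Ccr3 (-1.35, limma adjusted p = 0.0304), which was among the genes nearest to Retnlg. At 34 weeks neither was called (-0.02 and 0.38). Over time on HFD, Siglecf was the only called gene of the 4 tested eosinophil genes.

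Retnla was the one paralog with a called difference of the diet effect between 8 and 20 weeks (-3.03, limma adjusted p = 0.0184). None of 5 platelet genes or 4 B cell genes was called at 20 weeks in limma, with 2 and 0 at an unadjusted p under 0.05. Germ cell, seminal vesicle and epididymis genes were not called there either, with 3 of 4, 0 of 1 and 1 of 3 tested genes at an unadjusted p under 0.05.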
